A study of Caenorhabditis elegans with 2 samples.

Results

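The windows of 10 forkhead genes of Caenorhabditis elegans, pha-4, lin-31, unc-130, pes-1, let-381, fkh-2, fkh-7, fkh-8, fkh-9 and fkh-10, were searched for binding of ZIP-8, a transcription factor of the bZIP class, in the embryo. They are 10 of 15 forkhead genes considered here and of 19973 protein-coding genes on the nuclear chromosomes, and a peak was taken when its summit lay from 5 kb upstream of the Ensembl gene start to the gene end. The assay was ChIP-seq, by the sample description of a ZIP-8 fusion to eGFP, while the antibody label names zip-8, in whole embryos of mixed stage, from strain OP327, which carries unc-119(ed3) III and the transgene wgIs327, with male and female animals pooled per the labels. There was 1 group of 2 biological replicates. Whether the antibody bound the tag or ZIP-8 itself is therefore not settled by the labels, and whole embryos do not tell in which cells a site was occupied. Each label names a biosample of its own, but not whether the worms were grown separately, so the spread between replicates may be partly technical.

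The authors deposited a ranked peak list for each replicate, 22803 peaks for replicate 1 and 12222 for replicate 2, a list of 30000 peaks from the pooled reads, and an optimal list of 2634 peaks, of which 2610 were nuclear, that had passed a threshold on the irreproducible discovery rate (IDR). The optimal peaks were the first 2634 of the pooled list, which was made from the reads of both replicates together. A place in the optimal list therefore does not show that both replicates had a peak there. Peak signals are the authors' values, on a scale not given in the sources used here, and were compared within a list only. The depth of the libraries is unknown. In windows of the same kind, the strongest optimal peak at zip-8 had a signal of 182 (rank 61) and that at unc-119 138 (rank 123), a pair of loci whose DNA transgenes of this kind usually also carry, and the part of those copies in the signal was not tested.

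Forkhead proteins bind DNA through a winged-helix domain and act at many steps of worm development. PHA-4, the FoxA factor, specifies the pharynx. LET-381 is needed for the coelomocyte fate among mesodermal descendants of the M blast cell, and PES-1 and FKH-2 act redundantly in the early embryo. LIN-31 directs vulval fates downstream of MAP kinase signalling, UNC-130 acts in sensory neuron fate and in axon guidance, and FKH-8 regulates genes of sensory cilia. Proteins of the bZIP class bind as dimers, and each partner contacts one arm of a short, often palindromic, DNA site.

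The DNA at 4 of the optimal summits, those of lin-31, pes-1, fkh-2 and fkh-9, and at 2 lower peaks of the same genes is shown. The DNA at the optimal summits of let-381 and fkh-10 is not shown. Each stretch is from the plus strand of the RefSeq sequence of WBcel235 (ce11 coordinates), 5′ to 3′, within 50 bp of the summit. Capitals mark the full bZIP site, by the patterns given below. At the fkh-9 optimal peak they mark TTACGCAA, which is not one of those patterns. For pes-1 only the coding part of the window is printed.

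lin-31, intron 3, chrII:3984532-3984632: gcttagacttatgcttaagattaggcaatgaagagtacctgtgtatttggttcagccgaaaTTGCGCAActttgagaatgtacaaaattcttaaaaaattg
pes-1, first coding exon, chrIV:5002752-5002787: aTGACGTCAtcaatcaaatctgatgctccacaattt
fkh-2, upstream, optimal peak, chrX:3744808-3744908: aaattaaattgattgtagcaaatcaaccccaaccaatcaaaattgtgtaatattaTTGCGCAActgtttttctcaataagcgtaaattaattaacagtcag
fkh-2, upstream, lower peak, chrX:3744117-3744217: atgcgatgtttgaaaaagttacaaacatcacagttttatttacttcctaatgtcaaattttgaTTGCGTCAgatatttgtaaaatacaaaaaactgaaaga
fkh-9, intron 1, optimal peak, chrX:3824021-3824121: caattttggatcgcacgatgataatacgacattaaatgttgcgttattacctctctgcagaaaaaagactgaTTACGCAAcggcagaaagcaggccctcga
fkh-9, intron 1, lower peak, chrX:3825726-3825826: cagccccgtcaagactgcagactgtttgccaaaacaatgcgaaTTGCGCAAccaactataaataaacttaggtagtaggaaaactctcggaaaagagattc

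Of the 10 genes, 6 had an optimal summit in the window, 1 each: let-381, fkh-9, fkh-2, pes-1, fkh-10 and lin-31, in falling order of signal. Over all protein-coding genes the same kind of window held an optimal summit in 17.6% of cases, so the genes stood at 60% (95% interval 26.2 to 87.8, exact Clopper-Pearson, counting error only). The windows differ in length, with a median of 8.24 kb for the 10 genes and 7.03 kb for all. Among windows of 7 to 10 kb, 4 of 4 of the 10 genes and 18.1% of 6883 genes held an optimal summit. Among those under 7 kb the counts were 1 of 3 and 13%, among those of 10 to 20 kb 1 of 2 and 28.7%, and above 20 kb 0 of 1 and 44.6%. These counts leave out the other forkhead genes. Of those, fkh-6 (8.82 kb) and the shorter windows of fkh-3, fkh-4 and fkh-5 held none, and daf-16 (31.2 kb) held 2. Per length, the forkhead windows held 53.8 optimal summits per Mb and the nuclear genome 26.0. No test was made, since the genes were listed with results of these data known and 1 group allows no comparison of conditions.

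All 6 summits had the forkhead gene itself as the nearest protein-coding start, and 2 lay within 1000 bp upstream of it. By the annotation 2 were at promoters, 2 in introns and 2 intergenic, beside 31.0%, 28% and 23.0% of all optimal summits, the rest of which lay in exons. The signals ran from 22.1 to 54.8 with a median of 35.4, beside a median of 38.4 (quartiles 27.5 and 58.8) over the optimal list. The forkhead median was thus near that of the list. None of these 6 peaks exceeded the upper quartile, and those of lin-31 (22.1) and fkh-10 (24.3) lay under the lower one. At the edge of the optimal list, whose lowest signal was 21.4, the lin-31 peak at 22.1 was just inside and a second fkh-9 peak at 21.2 just outside.

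**Figure D1:**
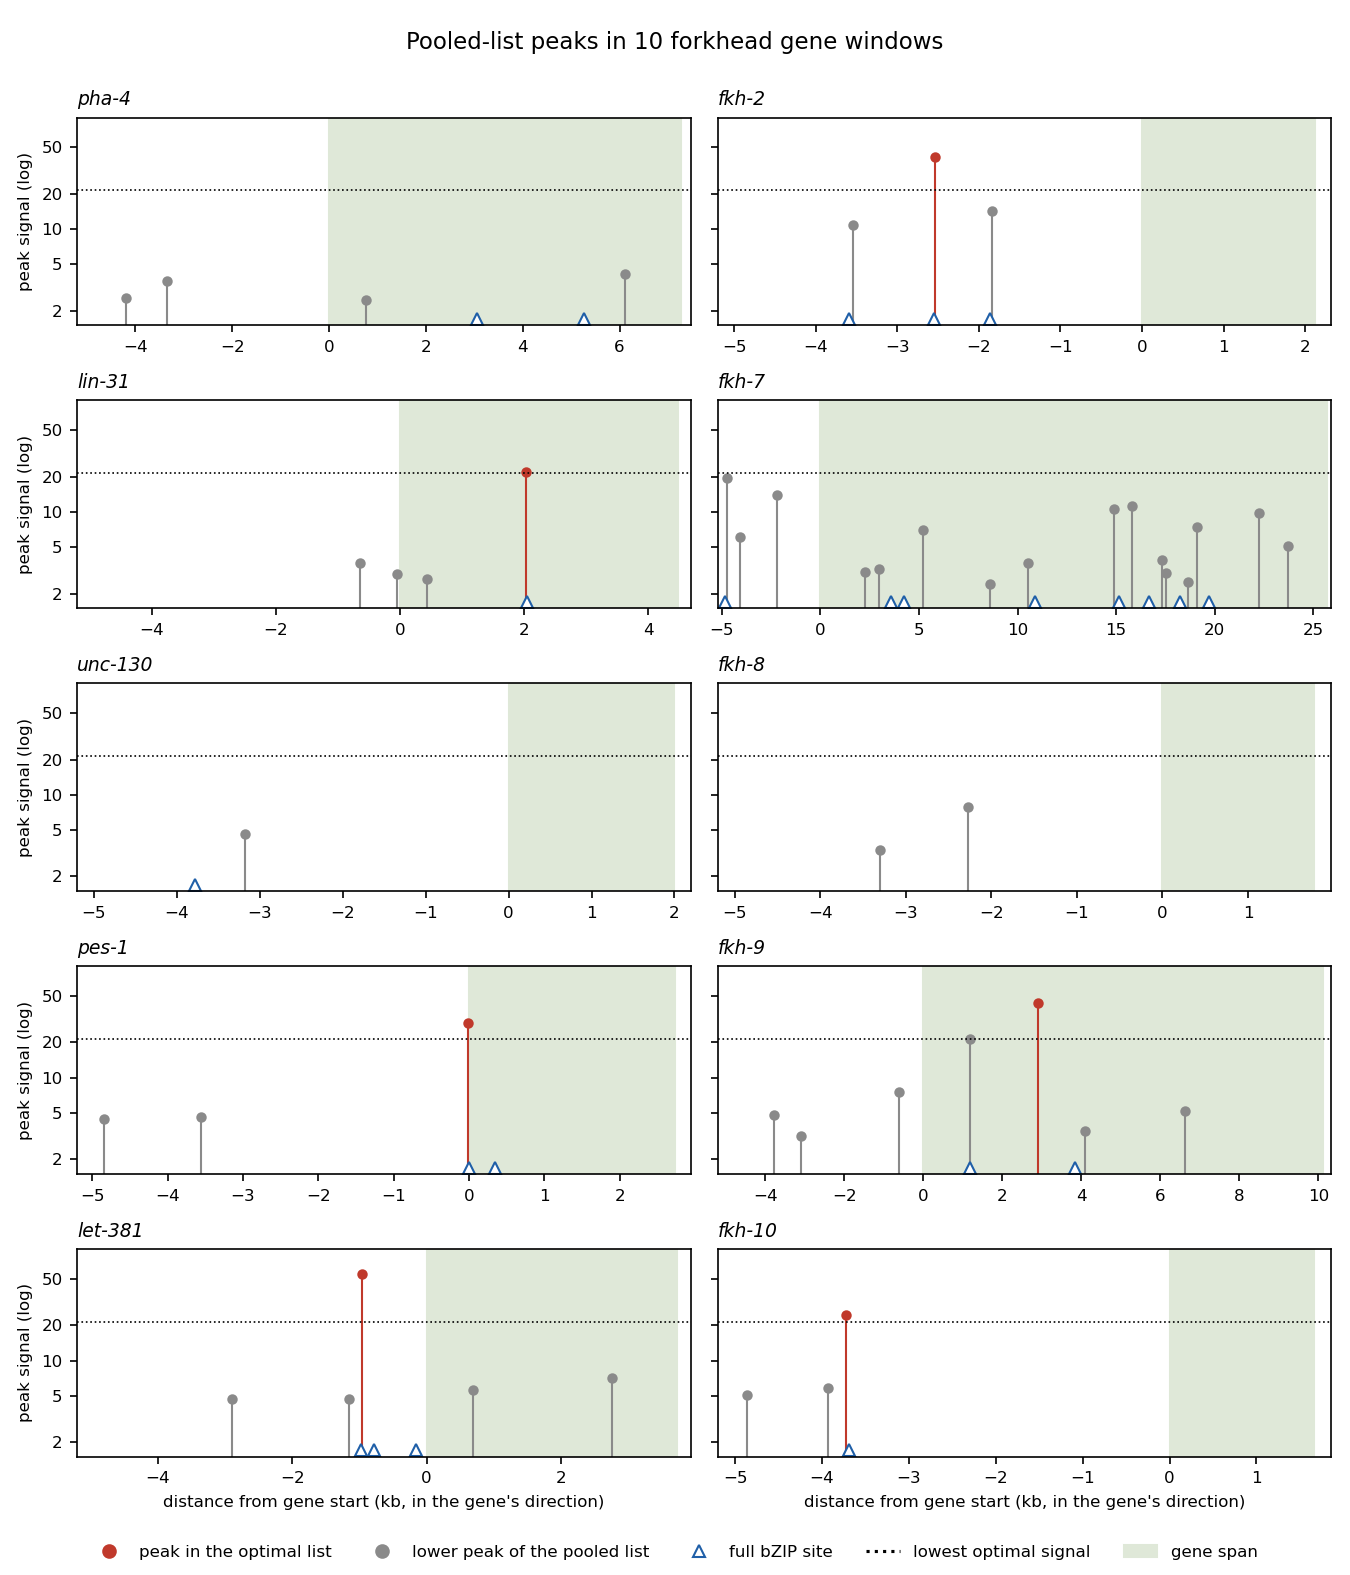
Signal of each pooled-list peak (log axis) against the distance of its summit from the gene start in kb, for the 10 forkhead windows; red points are peaks of the optimal list, grey points lower peaks, triangles full bZIP sites, shading the gene span and the dotted line the lowest optimal signal of 21.4. Of the 48 peaks, 6 are red, 1 each in 6 windows, and the fkh-7 window holds 16 grey peaks and 8 full sites, none of them within 50 bp of a summit.

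Summits were called as having a full bZIP site where 1 of 5 patterns of 8 bases, on either strand, lay wholly within 50 bp: the CRE site of CREB and ATF proteins (TGACGTCA or TGACGTAA), the C/EBP palindrome TTGCGCAA, the PAR palindrome TTACGTAA, the C/EBP and CRE hybrid TGACGCAA, and the C/EBP-ATF composite TGATGCAA. Among all optimal summits these stood at 49.0%, 16.4%, 3.45%, 9.46% and 1.84%. Of the 6 forkhead summits, 5 had such a site (83.3%, interval 35.9 to 99.6), beside 78.7% of all 2610 optimal summits, which is near that background. With the strongest 2634 peaks of replicate 2 alone, so without replicate 1, the windows held 5 summits and 1 had a full site (20%). Over all such peaks of replicate 2 the share was 49.0%. Without replicate 2 the share in the windows was 66.7% of 6, beside 80.2% over all such peaks of replicate 1. The C/EBP palindrome accounted for 3 of the 5, at lin-31, fkh-2 and fkh-10, with 1 CRE palindrome at pes-1 and 1 PAR palindrome at let-381. None of the 6 windows held the forkhead word TGTTTAC (both strands), which stood at 1.38% of optimal summits.

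let-381 had the strongest peak of the 10 genes. Its optimal summit lay 956 bp upstream of the gene start (I:6324975, signal 54.8, rank 761), with the PAR palindrome 10 bp away at I:6324985–6324992. The peak was found in both replicate lists, with a signal of 39.5 (rank 685) in replicate 1 and 25.6 (rank 322) in replicate 2, and the replicate summits lay 26 and 20 bp from the pooled one. Among the peaks of the 10 genes it had the highest rank in each of the 3 lists. A second PAR palindrome 786 bp and a C/EBP palindrome 154 bp upstream of the start were at no pooled summit, although the first of these was 170 bp from the optimal one. The gene's other 4 pooled peaks had signals of 4.70 to 7.05 and no full site. The start of F26B1.1 lay 1646 bp from the optimal summit on the other side.

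At pes-1 the optimal summit lay 11 bp upstream of the gene start (IV:5002737, signal 29.1, rank 1864). The CRE palindrome TGACGTCA began 16 bp further on, at IV:5002753–5002760, and its first bases overlap the start codon ATG of transcript T28H11.4a.1, at IV:5002752, as the sequence above shows. It was the single CRE in all 10 forkhead windows. The replicates gave this peak very different places: replicate 1 had a signal of 25.5 at rank 1327, and replicate 2 had 2.18 at rank 11301 of 12222, close to the lowest signal of its list (2.00). Both replicate summits lay inside the first exon, 28 and 21 bp past the start, and both had the CRE within 50 bp. A C/EBP palindrome 349 bp past the start, in intron 1, was at no pooled summit.

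fkh-2, which acts with pes-1 in the embryo and later in the cilia of AWB neurons, had 3 pooled peaks in a row upstream, at 1844, 2535 and 3538 bp from the start, with signals of 14.2, 41.6 and 10.8. The middle one was the optimal peak (X:3744858, rank 1157), and its C/EBP palindrome lay 5 bp from the summit. The peak at 1844 bp held the hybrid TGACGCAA (shown above from the opposite strand as TTGCGTCA) 13 bp from the summit. At the peak at 3538 bp a PAR palindrome began 46 bp from the summit and so ran past the limit of 50 bp. Each of the 3 full sites in this window therefore lay close to a pooled summit, which held for no other window with more than 1 site. In replicate 1 the peaks had signals of 13.1, 34.3 and 9.07, and in replicate 2 only the middle one was listed, with 5.47 at rank 3591. Its replicate 2 summit was 67 bp away and had no full site within 50 bp. The next protein-coding start, that of tag-18, was 10822 bp from the optimal summit.

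lin-31 had its optimal peak in intron 3, 2033 bp past the gene start (II:3984582, signal 22.1, rank 2539), with a C/EBP palindrome 11 bp from the summit. Replicate 1 had a peak there (signal 11.7, rank 3059) whose summit was 6 bp away. Replicate 2 had no peak that overlapped it, and its nearest summit, in the same intron with a signal of 6.64, lay 353 bp away and had no full site. The lin-31 peak thus rested on replicate 1 and the pooled reads. The 3 lower pooled peaks, at the promoter and in intron 1, had signals of 2.69 to 3.65.

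fkh-9, needed in touch neurons for axon regrowth in insulin receptor mutants, had the optimal peak in intron 1 of 1 of its 6 annotated transcripts, 2892 bp past the start (X:3824071, signal 43.9, rank 1082), and both replicates listed it, with 31.2 (rank 1009) and 14.1 (rank 865). This was the only one of the 6 with no full site within 50 or 100 bp. It held TTACGCAA 22 bp from the summit, at X:3824093–3824100, a word 1 base away from the PAR palindrome, from the C/EBP palindrome and from the hybrid. That word, examined because it was seen here, was found within 50 bp of 307 of 2610 optimal summits (11.8%) and of 0.998% of the 27362 lower pooled summits. Among the 556 optimal summits with no full site it stood at 282 (50.7%), and among lower summits with no full site at 1.07%. The fkh-9 occurrence was the 1 copy in the 10 windows, and the other forkhead genes were not searched for it.

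The second strong peak of fkh-9 lay 1187 bp past the start in the same intron (X:3825776, signal 21.2, rank 2657), just below the optimal list. The C/EBP palindrome lay on its summit. Replicate 1 listed it with 19 at rank 1892, and replicate 2 did not list it. The neighbouring start on the other side, F35A5.1, was 16605 bp from the optimal summit.

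At fkh-10 the optimal summit lay 3720 bp upstream (I:10168852, signal 24.3, rank 2285), and the start of sup-46 was 3751 bp away on the other side, nearly as near. The C/EBP palindrome was 32 bp from the summit, the farthest of the 5. Replicate 1 had a signal of 10.6 at rank 3317 with a summit 32 bp away, and replicate 2 had 7.13 at rank 2429 with a summit 175 bp away, closer to a second pooled summit of signal 5.80 than to the optimal one. Neither replicate summit had the site within 50 bp, so the match depends on the pooled summit.

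Of the 6 optimal peaks, 6 overlapped a peak of replicate 1 by at least 1 bp and 5 a peak of replicate 2. Both lists held 5 of them (83.3%, interval 35.9 to 99.6), beside 81% of all optimal peaks. With a summit of each replicate required within 100 bp there were 4 of 6 (66.7%), beside 75.4% of all. An overlap of 50% of the optimal peak also gave 4 of 6, beside 75.1%. When only the 2634 strongest peaks of each replicate list were allowed, 2 of 6 remained, let-381 and fkh-9, beside 50.2% of all. Ranks as a share of each list's length were 3.00% and 2.63% for let-381 in replicates 1 and 2, 4.42% and 7.08% for fkh-9, and 5.82% and 92.5% for pes-1. The forkhead peaks thus ran from closely matched in both libraries to present almost only in one.

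**Figure D2:**
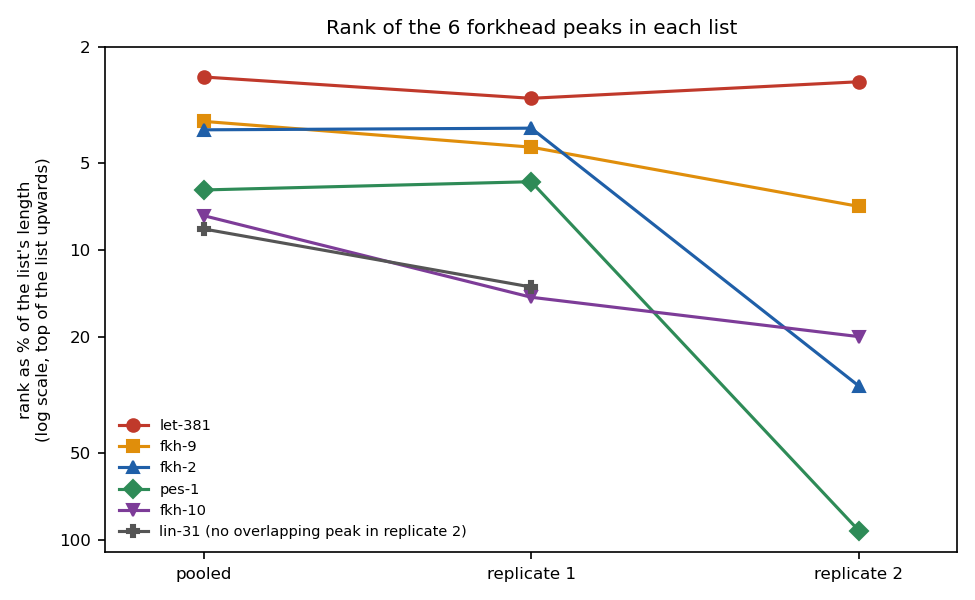
Rank of the 6 optimal forkhead peaks as a percentage of the length of the pooled list and of each replicate list (log axis, strongest at the top; replicate values are the strongest overlapping peak). let-381 stays between 2.54% and 3.00% in the 3 lists, pes-1 falls to 92.5% in replicate 2 and lin-31 has no overlapping peak there.

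The remaining 4 genes, pha-4, unc-130, fkh-7 and fkh-8, had no optimal summit. All 10 genes had some pooled summit, beside 81.8% of all protein-coding genes, all 10 had a summit in replicate 1 (78.9% of all) and 9 in replicate 2 (58.6%), the exception being unc-130. The 42 lower pooled summits in the windows included 2 with a full site, those of fkh-2 and fkh-9 described above, beside 8.87% of lower summits in general.

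pha-4 had 4 pooled peaks with signals of 2.45 to 4.15, under the median of 4.61 for lower peaks of the pooled list. They lay 4199 and 3348 bp upstream and 763 and 6113 bp past the start, the last 2 in introns. In replicate 2 its strongest peak was in intron 1, at rank 3863 of that list (signal 5.22), and the pooled peak there was at rank 29911 (signal 2.45). Its 2 full sites, a hybrid in an intron and a C/EBP-ATF composite in an exon, lay 2300 and 847 bp from the closest pooled summit. pha-4 thus had no pooled peak above that median.

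unc-130 had 1 pooled peak, 3179 bp upstream with a signal of 4.58, listed in replicate 1 with 4.73. Its 1 full site, a PAR palindrome, was 592 bp from that summit. fkh-8 had 2 pooled peaks, with signals of 7.86 and 3.35, both in exons of cpb-2. The fkh-8 window was the only one of the 10 with no full site.

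fkh-7 had the widest window, 30.7 kb, and the most pooled peaks, 16, none with a full site within 50 bp and none in the optimal list. The strongest lay 4713 bp upstream (IV:5579971, signal 19.6, rank 2871), with 18.6 at rank 1932 in replicate 1 and no overlapping peak in replicate 2. A hybrid site was 100 bp from its summit. The next, 2184 bp upstream, had a pooled signal of 14.0, of 3.73 at rank 12602 in replicate 1 and of 8.27 at rank 1950 in replicate 2. A peak in intron 1, 15789 bp past the start, had 11.2 in the pooled list, 4.54 at rank 9709 in replicate 1 and 11.1 at rank 1231 in replicate 2. The replicates thus placed their strong fkh-7 peaks at different positions.

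The 10 windows held 23 full sites in all, in 9 of the 10 genes. The share of all protein-coding genes with a full site in the window is not given here, so this count has no background. Of these, 5 lay within 50 bp of an optimal summit (21.7%), beside 13.3% of the 15869 full sites in the windows of all protein-coding genes. Another 2 lay at lower pooled summits and 16 at none. By pattern, 3 of 7 C/EBP palindromes were at an optimal summit (27.1% of 1459 in all windows), 1 of 1 CRE (18.4% of 7374), 1 of 6 PAR palindromes (9.60% of 875), 0 of 5 hybrids (11.9% of 1923) and 0 of 4 C/EBP-ATF composites (1.11% of 4238). fkh-7 alone held 8 of the 16 sites at no pooled summit, and its C/EBP palindrome in intron 1 was 257 bp from the closest pooled summit.

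**Figure D3:**
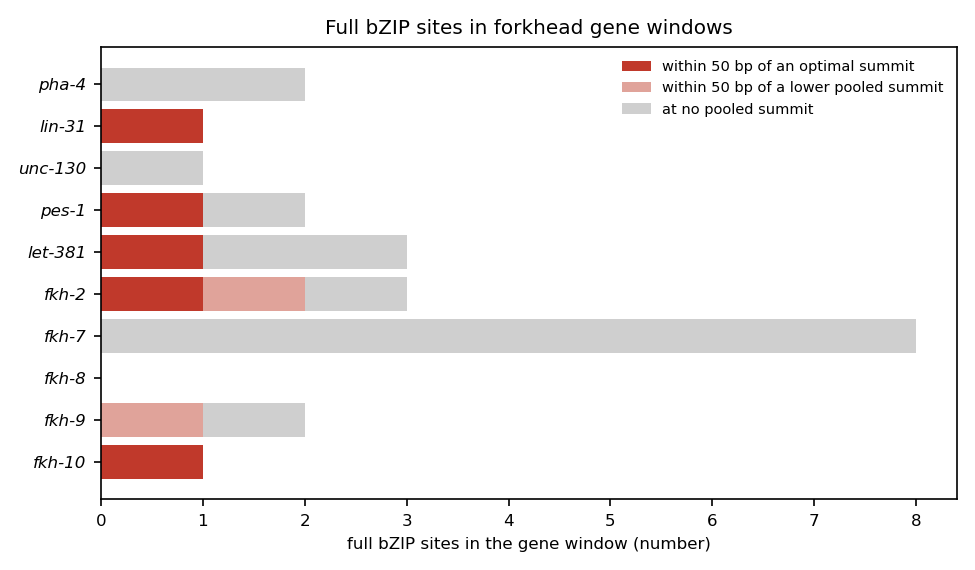
Number of full bZIP sites in each forkhead window, split by whether the site lay within 50 bp of an optimal summit, of a lower pooled summit or of none. The 5 sites at optimal summits are 1 each in 5 windows, and fkh-7 has 8 sites at no pooled summit.

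Among the other forkhead genes considered, daf-16, fkh-3, fkh-4, fkh-5 and fkh-6, 1 of 5 (20%) had an optimal summit, beside 17.6% of all protein-coding genes. This was daf-16, with 2 optimal summits in a window of 31.2 kb. Of all windows above 20 kb, 44.6% held an optimal summit. At daf-16 neither summit was at a promoter. The stronger lay 2394 bp upstream with a signal of 75.9 (rank 395), above all forkhead peaks given so far, and had a C/EBP palindrome 2 bp from the summit. Replicate 1 had 52.6 and replicate 2 had 13.2 there. The other was intronic with a signal of 25.3 and no full site. fkh-3 and fkh-4 had no pooled peak, and fkh-5 and fkh-6 had 2 each, of at most 5.79.

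Genes that work in the same tissues were read in windows of the same kind, which are longer than average for the lists used (medians of 8.55, 9.38, 9.79 and 14.1 kb for the pharynx, mesoderm, neuron and vulva lists). Of 21 pharynx genes, 6 had an optimal summit (28.6%), led by eya-1, the eyes absent gene (49.1), the T-box gene tbx-37 (45.9), the pharyngeal myosin gene myo-2 (42.3, in an exon of its neighbour T18D3.5) and the homeobox gene ceh-27 (34.4). All 4 had a full site, as did 5 of the 6 by their strongest peak. Of 22 muscle and mesoderm genes, 7 had one (31.8%): the strongest signals were at the Pbx gene ceh-20 (90.1, in an intron of F31E3.2), the SoxC gene sem-2 (85.6, 121 bp upstream), the troponin I gene unc-27 (46.5, in an intron of ZK721.3) and the Hand gene hnd-1 (26.8). All 7 had a full site at their strongest peak.

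Of 32 neuron and cilium genes, 13 had an optimal summit (40.6%), with the highest signals at the Otx gene ttx-1 (107), the netrin receptor gene unc-5 (83.8, at an internal promoter), the dynein heavy chain gene che-3 (52) and the atonal gene lin-32 (51.4). Of these 4 only unc-5 had a full site, and of all 13 there were 6 with one at their strongest peak. Of 12 genes of vulval signalling around lin-31 there was 1 (8.33%), the Notch receptor gene lin-12 (31.7, intronic, no full site). The shares of genes were set beside 17.6% of all protein-coding genes, and the counts with a full site beside 78.7% of all optimal summits. The share of genes rises with window length, with 18.1% of all windows of 7 to 10 kb and 28.7% of those of 10 to 20 kb. The lists were not matched for length, and none of these differences was tested.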

How the data were processed

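ChIP-seq peak lists from 2 replicates of 1 group were used. The authors deposited them in narrowPeak format on ce11; per the file headers, each replicate list was made from its alignments and a control, the pooled list from both replicates, and the optimal list with an IDR threshold. Column 7 holds a signal value per peak, deposited as the authors' peak caller gave it. No source used here gives the aligner, the caller or the threshold. Lists on ce10 were not analysed here. Depth is unknown.

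Windows ran from 5 kb upstream of the gene start to the gene end in Ensembl release 115 (WBcel235), whose chromosome lengths contain all ce11 peaks. Coordinates are 1-based. Promoters were taken as 1000 bp before to 200 bp after a protein-coding transcript start. Peaks were joined between lists by an overlap of at least 1 bp. Distances to a site run to its nearest base. Intervals are exact Clopper-Pearson 95% intervals and cover counting error only. No test was run. Window and motif search were tested on simulated data. Python 3.11.15, pandas 2.3.3 and scipy 1.17.1 were used.

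The members, gene lists and site patterns were chosen with earlier results of these data known. Named genes are the 10 members, the other forkhead genes, neighbours of their optimal summits, and the 4 genes of highest signal in each list; the word TTACGCAA was chosen after its values were seen. Alternatives were other windows, list thresholds, motif distances, overlap rules and each replicate left out.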

Additional observations from a re-analysis of the deposited data

How the results depend on the processing

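The count of 6 forkhead genes with an optimal summit was 3 for the stronger 50% of the optimal peaks (let-381, fkh-2 and fkh-9; 9.30% of all protein-coding genes) and 10 with all pooled peaks (81.8%), and the summits then numbered 3 and 48. Windows from 2 kb upstream left 4 genes, losing fkh-2 and fkh-10, beside 11.6% of all genes, and windows from 10 kb gave 6 beside 26.7%, where the main windows had 17.6%. With the strongest 2634 peaks of 1 replicate in place of the optimal list, the genes were let-381, fkh-7, fkh-9 and fkh-10 without replicate 1 (17.5% of all genes), and pes-1, let-381, fkh-2, fkh-7 and fkh-9 without replicate 2 (17.8%). lin-31 was thus in neither set, and fkh-7, which had no optimal summit, was in both. The share of summits with a full site, 83.3%, was 20% without replicate 1 (1 of 5) and 66.7% without replicate 2 (4 of 6), and over all such peaks it was 49.0% and 80.2%. It was 100% with TTACGCAA as a sixth pattern, an alternative chosen after seeing the data. The share overlapped in both replicates, 83.3%, was 33.3% among the strongest peaks of each replicate list and 100% for the stronger 50% of the optimal peaks. The cause of these differences was not tested. No paired analysis was possible because there is 1 group. With 6 peaks and no read counts, shares are imprecise and a missing peak does not show absence of binding.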

Other observations

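The word at the fkh-9 summit completes a series. Sites made of a pair of the arms TGAC, TTGC and TTAC, with the second arm on the other strand, have 6 forms, and TTACGCAA, which pairs TTAC with TTGC, is the one form not counted among the full sites. Within 50 bp of the 2610 optimal summits the CRE palindrome stood at 39.5%, the C/EBP palindrome at 16.4%, TGACGTAA at 11.8%, TTACGCAA at 11.8%, the hybrid at 9.46% and the PAR palindrome at 3.45%. At lower pooled summits these shares were 4.76%, 0.687%, 0.994%, 0.998%, 0.979% and 0.508%. Median signals of optimal peaks with each form were 37.6, 50.8, 42.3, 39.5, 42.0 and 42.1 in the same order. With TTACGCAA included, a site was found at 89.5% of optimal summits in place of 78.7%, and at 9.85% of lower pooled summits. Among the strongest peaks of replicate 1 with no full site, TTACGCAA stood at 52.5%, and among those of replicate 2 at 13.9%. These values describe 1 set of peaks and were not tested.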
